A study of Mus musculus with 17 samples.

Results

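The genes described here are 10 transcription factors that mark or maintain the stem cells of mouse skin: Lhx2, Sox9, Nfatc1, Tbx1, Foxc1, Tcf7l1, Tcf7l2, Nfib, Runx1 and Trp63. They were chosen by name as a list of factors of the hair follicle bulge and the epidermis, and all 10 were found among the 35674 genes of the deposited tables. Their transcripts were measured in 17 libraries of stem cells sorted from the skin of wild-type (WT) mice. Hair follicle stem cells (HFSCs) came from mice that were fed ad libitum (3 libraries), fasted for 24 h (3) or fasted for 48 h (3), and epidermal stem cells (EpiSCs) came from ad libitum mice (2). Further HFSCs came from mice after 6 months on alternate-day fasting (ADF), taken the day after a fast (2 libraries), from mice after 6 months of ad libitum feeding (2), and from control mice in the 2nd telogen, a resting phase of the hair cycle (2). The age and sex of the mice, any pooling of animals and the hair cycle stage of the other HFSCs were not stated by any source consulted here. In the table that holds the telogen libraries, the ad libitum columns carry the prefix ana1, which no source explains.

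In the GENCODE annotation of the GRCm38 mouse genome, all 10 are protein-coding genes. Lhx2 lies at chr2:38339281-38369733 on the plus strand, Sox9 at chr11:112782224-112787760 on the plus strand, Foxc1 at chr13:31806633-31812476 on the plus strand and Tcf7l2 at chr19:55741820-55933654 on the plus strand. Tcf7l1 lies at chr6:72626378-72789254, Nfib at chr4:82290173-82705750 and Nfatc1 at chr18:80606205-80713071, all on the minus strand. Chromosome 16 carries Tbx1 (chr16:18580979-18590671, minus strand), Trp63 (chr16:25683763-25892102, plus strand) and Runx1 (chr16:92601466-92826149, minus strand). Values were given per gene, so the long and short forms of p63 could not be told apart. The antisense genes Gm15401 and Gm26626 overlap exons of Tcf7l1 and Runx1 and have no value of their own here, and the strand setting of the quantification is not given in the sources used here.

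The bulge is the niche of the hair follicle where stem cells rest between rounds of hair growth, and the basal layer of the epidermis holds the stem cells that renew the skin surface. Lhx2, Sox9, Tbx1, Nfatc1 and Foxc1 have been studied in mice as factors that set up the bulge or hold its cells in quiescence, and Tcf7l1 and Tcf7l2 are DNA-binding partners of beta-catenin in Wnt signalling. Runx1 promotes the entry of HFSCs into growth, Nfib acts in HFSCs on the neighbouring melanocyte stem cells, and Trp63 encodes p63, the factor on which all stratified epithelia depend.

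Promoter sequence is shown for Lhx2, Foxc1 and Tbx1, which averaged below 1 TPM in EpiSCs. RefSeq promoter windows on GRCm38.p6 were available for 6 of the 10 genes (10 windows), and those printed end within 50 bases of the annotated gene start, which the Tcf7l1 window, the other candidate by level, did not. Each is the 250 bases before the RefSeq transcript start, written 5′ to 3′ in the direction of transcription, from chr2:38339031-38339280 (plus strand) for Lhx2, chr13:31806396-31806645 (plus strand) for Foxc1 and chr16:18590672-18590921 (minus strand) for Tbx1. Capitals mark matches, on either strand, to the searched motifs present in these windows: the GC box GGGCGG, the CCAAT box, the RUNX core TGTGGT and the T-box core AGGTGT.
Lhx2: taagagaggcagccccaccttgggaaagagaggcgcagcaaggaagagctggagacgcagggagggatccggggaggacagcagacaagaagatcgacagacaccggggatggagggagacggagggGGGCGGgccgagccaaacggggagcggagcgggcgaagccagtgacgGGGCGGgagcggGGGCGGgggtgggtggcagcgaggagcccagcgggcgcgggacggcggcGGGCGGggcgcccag
Foxc1: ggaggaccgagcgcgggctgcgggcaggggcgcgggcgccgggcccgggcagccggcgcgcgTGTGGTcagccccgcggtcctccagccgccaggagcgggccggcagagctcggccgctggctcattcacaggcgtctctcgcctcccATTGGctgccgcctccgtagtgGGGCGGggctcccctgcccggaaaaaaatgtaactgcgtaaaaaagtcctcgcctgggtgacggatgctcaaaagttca
Tbx1: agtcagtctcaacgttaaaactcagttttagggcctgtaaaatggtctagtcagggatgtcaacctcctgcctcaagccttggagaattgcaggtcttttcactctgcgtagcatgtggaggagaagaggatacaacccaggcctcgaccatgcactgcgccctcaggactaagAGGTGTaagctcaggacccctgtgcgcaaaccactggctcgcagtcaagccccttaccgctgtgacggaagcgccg
The Lhx2 window held 25 CpG dinucleotides and the Foxc1 window 29, whereas the Tbx1 window held 10 and the median over 32851 mouse promoter windows was 6. GC boxes were found in 32.7% of all promoter windows, CCAAT boxes in 33.8%, the RUNX core in 14.0% and the T-box core in 11.8%. The TCF/LEF core was searched as CTTTGA, without a match in the 3 windows shown. The same was found for the LIM homeodomain core, written TAATTA, and for the forkhead core, written GTAAAC. The SOX core ACAATG, the NFI half-site TTGGCA and the NFAT core TGGAAA had no match there either, nor had the TATA box TATAAA.

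The deposited values are in TPM, a unit of transcript abundance that sums to the same total in each library and is already divided by transcript length, so levels can be compared between genes. The number of genes at 1 TPM or more ran from 10422 to 12087 per library. Transcripts of the mitochondrial genome took 25.4% to 33.9% of all TPM in ad libitum HFSCs, 18.8% to 36.3% after 24 h, 7.26% to 13.01% after 48 h, and from 2.84% to 4.10% in the EpiSC, 6-month and telogen libraries. A smaller mitochondrial share raises the TPM of every other gene, so each comparison is given beside the median shift of all genes and, where it matters, after median-ratio scaling, which centres that shift near 0. The sorted identities could be read from other genes. Bulge markers Cd34 (349 to 621 TPM) and Lgr5 (32.0 to 68.1 TPM) were high in ad libitum HFSCs. In EpiSCs Cd34 reached at most 0.497 TPM and Lgr5 was listed at 0 in both libraries. The keratin gene Krt15, also a bulge marker, was high in both EpiSCs (33863 to 34443 TPM) and ad libitum HFSCs (36869 to 39641 TPM). Of the other genes in the bulge list used here, Postn, Fgf18 and Lgr6, the first 2 were wholly lower in EpiSCs. Lgr6 was wholly higher there (28.8 to 32.5 against 14.6 to 18.1 TPM). The immune markers Ptprc and Cd3e were at most 0.224 TPM in both ad libitum cell types, and the immune list's summed level there (46.8 to 117 TPM) came mainly from Trbc2.

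In ad libitum HFSCs the most abundant of the 10 transcripts was Trp63, and the least abundant was Foxc1. Trp63 measured 151, 268 and 220.1 TPM in libraries 1, 2 and 3. Sox9 averaged 128 ± 21.6 TPM, Nfib 115 ± 28.8 TPM and Tbx1 111 ± 25.8 TPM (SD, n = 3 for each). Lhx2 followed at 80.4 ± 26.9 TPM and Nfatc1 at 57.0 ± 20.4 TPM (SD, n = 3). Neighbours in this order overlapped, but Trp63 lay wholly above Nfib, Tbx1, Lhx2 and Nfatc1, Lhx2 wholly below Sox9, and Nfatc1 wholly below Sox9, Nfib and Tbx1. A gap separated Nfatc1 from Tcf7l2 (22.1 ± 8.46 TPM), which overlapped Runx1 (9.05 ± 4.90 TPM), which in turn overlapped Tcf7l1 (8.03 ± 1.46 TPM). Foxc1 stood apart at the bottom with 4.49 ± 1.18 TPM (SD, n = 3). Among the 11462 genes that averaged at least 1 TPM in these cells, Trp63 lay above 95.6% and Foxc1 above 27.1%.

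**Figure D1:**
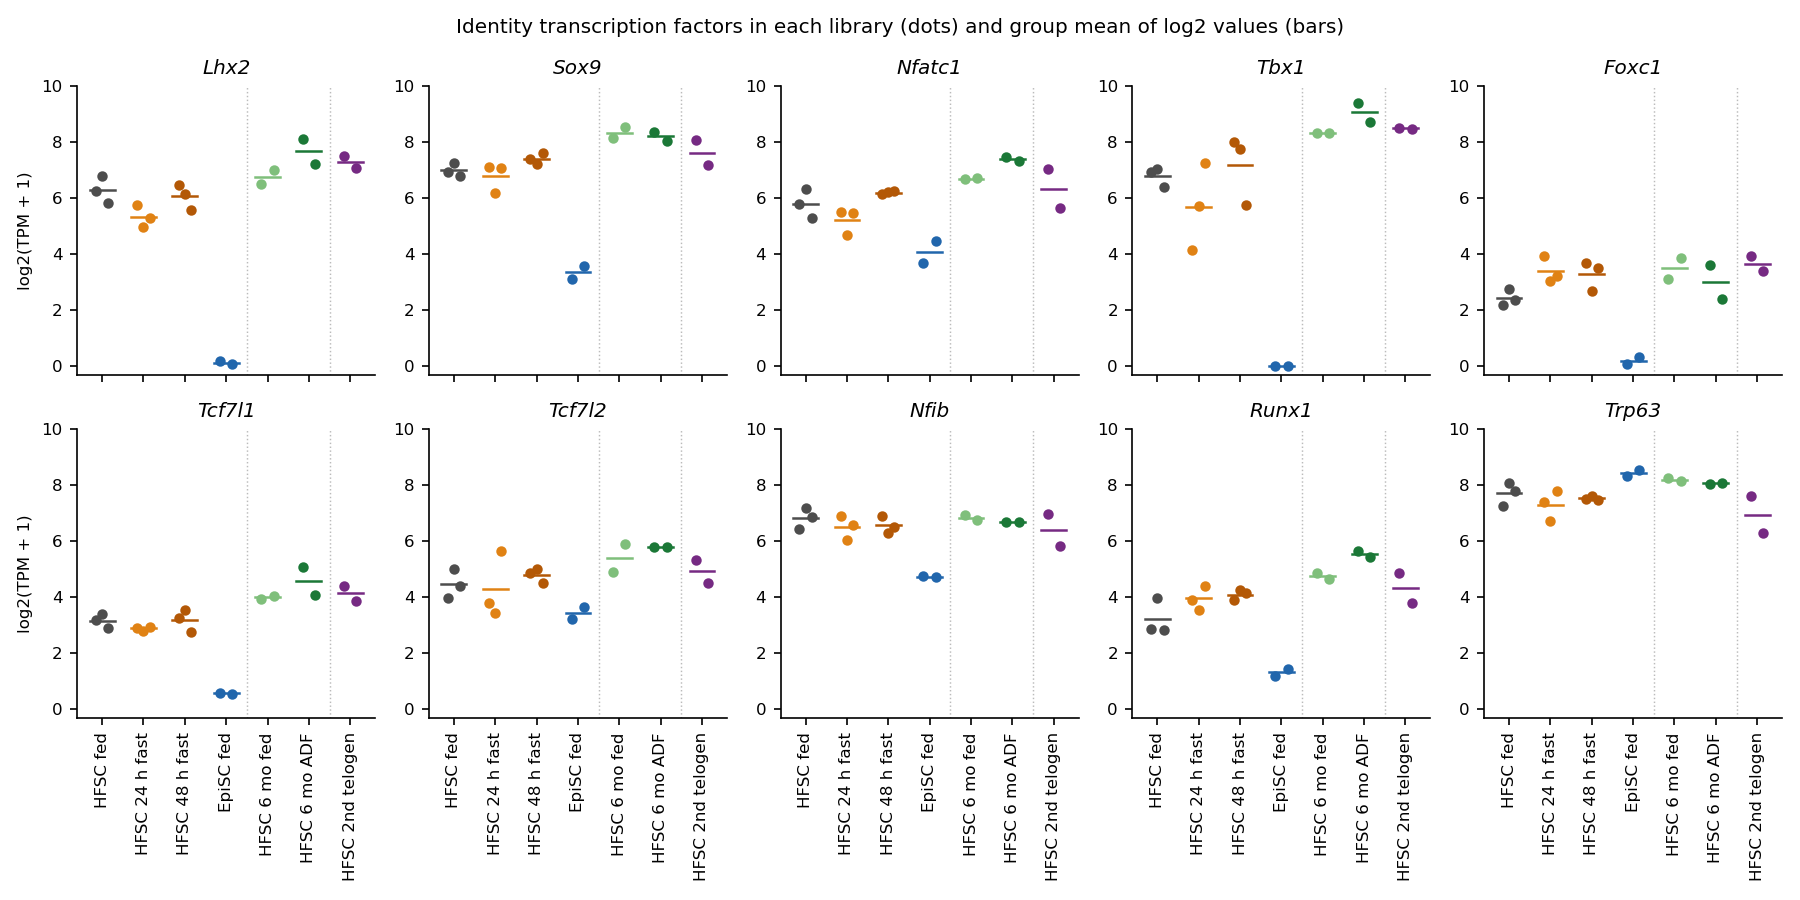
Level of each factor in every library, as log2(TPM + 1), by group; dots are libraries, bars are group means of the log2 values, and dotted lines separate the short experiment, the 6-month experiment and the telogen libraries. Lhx2, Tbx1, Foxc1 and Tcf7l1 lie near the bottom of the scale in both EpiSC libraries, Trp63 is high in every group, and Tbx1 spreads from 16.8 to 149.8 TPM among the 24 h libraries.

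The sharpest contrast was between the stem cell types. Of the 10 factors, 8 were lower in EpiSCs than in HFSCs of ad libitum mice, Trp63 was higher, and Tcf7l2 did not pass the test (limma, Benjamini-Hochberg adjusted p under 0.05). Over all 11774 genes tested 40.6% passed, 31.5% higher and 9.10% lower in EpiSCs, and the median gene was 0.50 higher on the log2 scale. All 10 factors had EpiSC libraries wholly below or above the HFSC libraries, 9 of them below, where 16.2% of all genes lay wholly below and 50.5% wholly above. Lhx2, Tcf7l1, Tbx1 and Foxc1 entered the test only through their HFSC level, since each averaged under 1 TPM in EpiSCs.

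Among the bulge factors, Lhx2, a LIM homeodomain protein, measured 76.3, 109 and 55.8 TPM in HFSC libraries 1, 2 and 3 and 0.140 and 0.0491 TPM in EpiSC libraries 1 and 2. Both EpiSC values were far below the lowest HFSC value. Its log2 fold change was -6.17 (SE 0.36; adjusted p = 1.31e-05). Tbx1, a T-box protein linked to the self-renewal of HFSCs, measured 119.97, 132 and 82.5 TPM in HFSCs and was listed at 0 in both EpiSC libraries (adjusted p = 4.71e-06), so no fold change is given. Sox9, an HMG-box protein needed to specify the HFSC lineage, was lower but still present: 120.2, 152 and 111 TPM in HFSCs and 7.61 and 11.1 TPM in EpiSCs. Its log2 fold change was -3.65 (SE 0.25; adjusted p = 3.09e-05).

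Nfatc1, a calcium-responsive factor of bulge quiescence, kept a sizeable level in EpiSCs. It measured 54.2, 78.7 and 38.2 TPM in HFSCs and 11.9 and 21.0 TPM in EpiSCs, and its log2 fold change was -1.72 (SE 0.36; adjusted p = 0.00651). Foxc1, a forkhead protein, was low in both cell types. It measured 3.54, 5.82 and 4.11 TPM in HFSCs and 0.0556 and 0.254 TPM in EpiSCs (log2 fold change -2.23, SE 0.39; adjusted p = 0.00317). Without EpiSC library 1 the adjusted p was 0.120 for Nfatc1 and 0.0683 for Foxc1, and without EpiSC library 2 it was 0.0514 for Foxc1.

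Of the Wnt-pathway factors, Tcf7l1 was lower in EpiSCs and Tcf7l2 missed the threshold. Tcf7l1, studied in the bulge as a repressor, measured 8.06, 9.48 and 6.56 TPM in HFSCs and 0.510 and 0.463 TPM in EpiSCs (log2 fold change -2.59, SE 0.38; adjusted p = 0.00127). Tcf7l2 measured 14.7, 31.3 and 20.3 TPM in HFSCs and 8.38 and 11.5 TPM in EpiSCs (log2 fold change -1.03, SE 0.37; adjusted p = 0.0556). Its groups did not overlap, and it passed after median-ratio scaling (-1.48, adjusted p = 0.00671) and without HFSC library 1 (adjusted p = 0.0291). Within a library, the ratio of Tcf7l1 to Tcf7l2 was 0.303 to 0.549 in HFSCs and 0.0402 to 0.0608 in EpiSCs. The ranges of this ratio, which does not depend on the total to which a library is scaled, did not overlap, and the difference was not tested.

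Of the broader factors, Nfib measured 85.7, 143 and 115 TPM in HFSCs and 25.8 and 25.5 TPM in EpiSCs (log2 fold change -2.09, SE 0.25; adjusted p = 0.000451). Runx1 measured 6.28, 14.7 and 6.17 TPM in HFSCs and 1.30 and 1.73 TPM in EpiSCs (log2 fold change -1.90, SE 0.46; adjusted p = 0.0128). The Runx1 call was lost without EpiSC library 1 (adjusted p = 0.149) and without EpiSC library 2 (adjusted p = 0.111). Trp63 was the 1 factor that was higher in EpiSCs, at 321 and 370.4 TPM against 151, 268 and 220.1 TPM in HFSCs. Its log2 fold change of 0.73 (SE 0.24; adjusted p = 0.0389) was close to the median shift of all genes. After median-ratio scaling it was 0.24 (adjusted p = 0.394) and after removing mitochondrial transcripts 0.25 (adjusted p = 0.400). It also lost the call without EpiSC library 1 (adjusted p = 0.171), EpiSC library 2 (0.258), HFSC library 1 (0.0606) or HFSC library 3 (0.0871).

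**Figure D2:**
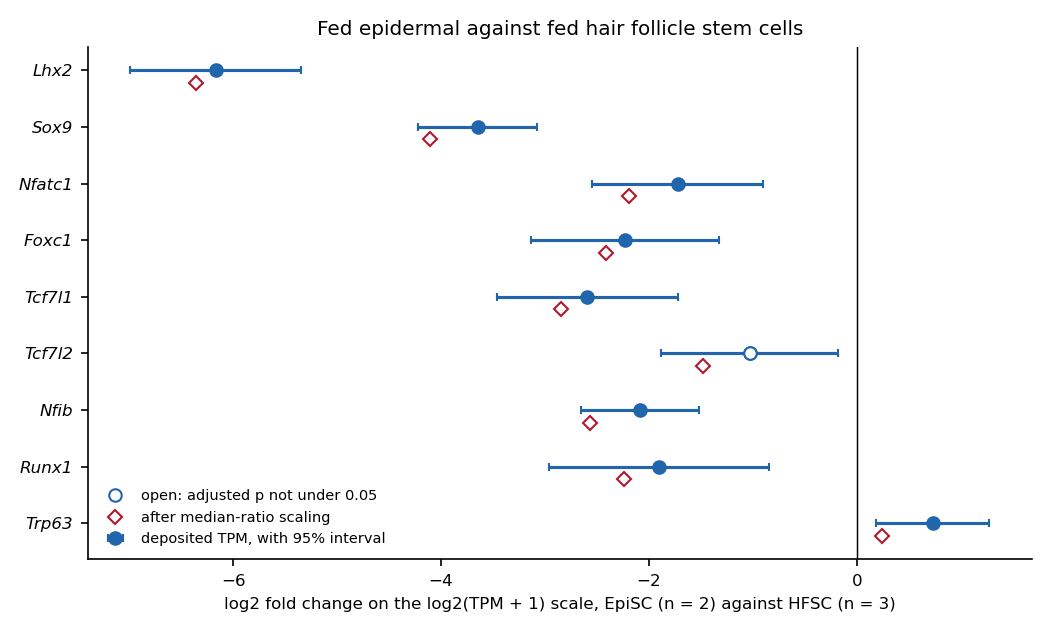
Log2 fold change of 9 factors between EpiSCs (n = 2) and HFSCs (n = 3) of ad libitum mice, on the log2(TPM + 1) scale; circles with bars are deposited TPM with 95% intervals, the open circle is Tcf7l2, which did not pass the test, and diamonds show median-ratio scaling. Tbx1 has no point because it is listed at 0 in EpiSCs; Lhx2 lies farthest to the left at -6.17, and the Trp63 diamond sits at 0.24.

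Other genes of the same programmes were counted from lists chosen by name. Of the 94 genes of the 5 lists tested, 71 passed (75.5%, against 40.6% of all genes). Of all genes 31.5% were higher and 9.10% lower in EpiSCs, with a median of 0.50. Of 24 tested factors of the interfollicular epidermis, 18 were higher in EpiSCs and 4 lower, with a median log2 fold change of 2.48. The largest were Hes1 (5.64, adjusted p = 4.74e-06), a Notch target, Pou3f1 (5.27, adjusted p = 1.21e-05), Zfp750 (4.97, adjusted p = 6.40e-05) and Ovol1 (4.84, adjusted p = 0.000452), the last 3 regulators of keratinocyte differentiation. Of 18 other hair follicle factors, 5 were higher and 8 lower (median -0.87); Sox21 (3.84, adjusted p = 0.000108) and Foxq1 (3.74, adjusted p = 0.000677) were higher. Hoxc13, a hair keratin regulator, was lower (-3.69, adjusted p = 0.000285), and Lef1, the TCF-family partner of beta-catenin, was listed at 0 in both EpiSC libraries against 7.14 to 10.2 TPM in HFSCs (adjusted p = 0.000404). After median-ratio scaling the split of the hair follicle factors was 3 higher and 12 lower.

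Of 19 tested genes reported as p63 targets in basal keratinocytes, 13 were higher in EpiSCs and none lower. Their median was 1.28 beside 0.50 for all genes, and 0.80 beside 0.06 after median-ratio scaling. Of all genes 31.5% were higher and 9.10% lower. The 13 p63 targets included the integrin gene Itga6 (3.51, adjusted p = 1.11e-05), Satb1 (3.49, adjusted p = 0.000257), Sfn (3.49, adjusted p = 2.65e-06) and the basal keratin gene Krt14 (2.89, adjusted p = 8.59e-06). Of 20 bulge genes placed downstream of or beside the 10 factors, 13 were lower and 3 higher (median -2.44), led by Cd34 (-8.61, adjusted p = 1.67e-06), Ptn (-5.18, adjusted p = 9.35e-07) and Dkk3 (-5.06, adjusted p = 1.43e-05), with Lgr5 listed at 0 in EpiSCs. Of 17 tested paralogs and binding partners, 8 were higher and 3 lower, with a median of 0.79 beside 0.50 for all genes. After median-ratio scaling 4 were higher and 4 lower. The SOX paralog Sox6 (5.19, adjusted p = 0.000609) and the corepressors Tle3 (2.60, adjusted p = 0.00148) and Tle4 (1.48, adjusted p = 0.0191) were among the higher ones. Some list genes entered the test through 1 cell type alone, since they averaged under 1 TPM in the other: 8 of the 13 hair follicle factors that passed, 4 of 22 epidermal factors, 2 of 11 paralogs and partners, 1 of 13 p63 targets and 6 of 16 bulge genes. Of the genes named here these were Hoxc13, Lef1, Cd34 and Lgr5, low in EpiSCs, and Foxq1 and Satb1, low in HFSCs.

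Markers of other cells also moved with this contrast. The 6 fibroblast markers summed to 10.8 to 22.7 TPM in HFSCs and 0.928 to 1.24 TPM in EpiSCs, where Col1a1 and Lum were at 0, and the 5 melanocyte markers to 9.10 to 15.7 and 1.27 to 1.82 TPM, with Tyrp1, Mlana and Kit at 0 in EpiSCs. The 4 sebocyte markers were lower as well (0.995 to 1.16 against 6.12 to 8.18 TPM). The 4 Schwann cell markers had a higher sum in EpiSCs (16.9 to 18.6 against 0.781 to 5.26 TPM), with Sox10 at 0. So had the 5 dermal papilla markers (3.57 to 3.79 against 0 to 0.409 TPM), with Alpl and Sox2 at 0 in both cell types. These differences came from Mbp (16.6 to 18.3 against 0.214 to 2.16 TPM) and Rspo3 (3.55 to 3.79 against 0 to 0.409 TPM). The 9 markers of interfollicular epidermis and upper follicle summed to 347 to 541 TPM in HFSCs and 11351 to 12061 TPM in EpiSCs. Most of the EpiSC sum was Ly6d (8176 to 9180 TPM), and Ly6a, Krt1, Krt10, Plet1 and Lrig1 were also wholly higher. Krt79 was wholly lower in EpiSCs (7.10 to 9.12 against 12.9 to 26.9 TPM), and Defb6 and Gata6 overlapped. The part of these marker lists in the levels of the 10 factors was not tested. In sorted bulk samples fewer cells of a type and less RNA per cell cannot be told apart.

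A 24 h fast changed none of the 10 factors past the threshold. At that time 3.07% of 11533 genes passed, with a median shift of -0.02 over all genes. Of the 10, 2 had an unadjusted p under 0.05, against 17.1% of all genes. Lhx2 measured 52.5, 30.3 and 38.6 TPM in the 24 h libraries 1, 2 and 3, each below the lowest ad libitum value of 55.8 TPM. Its log2 fold change was -0.96 (SE 0.32, 95% interval -1.63 to -0.29; adjusted p = 0.120). Foxc1 was higher without passing, at 14.4, 7.33 and 8.43 TPM, each above the highest ad libitum value of 5.82 TPM (log2 fold change 0.98, SE 0.43; adjusted p = 0.251). These were the only 2 of the 10 whose groups did not overlap, and of all genes 10.1% lay wholly lower and 7.77% wholly higher.

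The other bulge factors gave wide or small differences at 24 h. Tbx1 measured 16.8, 51.6 and 149.8 TPM, so 1 library lay above and 2 below every ad libitum library (log2 fold change -1.08, 95% interval -2.40 to 0.24). Nfatc1 measured 44.9, 24.6 and 43.9 TPM (-0.57, adjusted p = 0.365) and Sox9 136, 72.1 and 135 TPM (-0.20, adjusted p = 0.770), and both overlapped the ad libitum libraries. Library 2 was the lowest of the 24 h libraries for 9 of the 10 factors, Tbx1 being the exception. Tcf7l1 was steady within the group at 6.51, 5.95 and 6.73 TPM, while Tcf7l2 measured 13.004, 9.93 and 49.8 TPM. Runx1 measured 14.0, 10.8 and 20.2 TPM (0.73, adjusted p = 0.369), Nfib 118, 65.6 and 95.7 TPM (-0.31, adjusted p = 0.632) and Trp63 169, 106 and 218 TPM (-0.40, adjusted p = 0.511).

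The 48 h libraries again gave no factor past the threshold, although 15.3% of all genes passed (13.3% higher and 1.98% lower) and the median gene was 0.42 higher on the log2 scale. None of the 10 had groups that did not overlap, whereas 35.5% of all genes lay wholly higher and 7.07% wholly lower. Runx1 came closest to the threshold and was the 1 factor with an unadjusted p under 0.05, as were 31.1% of all genes. It measured 13.9, 17.9 and 16.8 TPM after 48 h, overlapping the ad libitum group only through ad libitum library 2 at 14.7 TPM. Its log2 fold change was 0.87 (SE 0.40; adjusted p = 0.148), and without ad libitum library 2 it was 1.24 (adjusted p = 0.0455), but median-ratio scaling gave 0.44 (adjusted p = 0.430). Foxc1 measured 11.8, 5.48 and 10.5 TPM (0.87, adjusted p = 0.181).

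For the remaining factors the 48 h and ad libitum libraries overlapped. Sox9 measured 167, 149 and 194 TPM (log2 fold change 0.41, 95% interval -0.15 to 0.98) and Nfatc1 69.0, 73.0 and 75.7 TPM (0.40, 95% interval -0.25 to 1.05), and median-ratio scaling gave -0.060 and -0.067. Lhx2 measured 86.6, 70.5 and 46.3 TPM (-0.24, 95% interval -0.91 to 0.44). Tbx1 was again spread, at 256, 216 and 53.2 TPM (0.39, 95% interval -0.93 to 1.71). The 48 h group had Tcf7l1 at 8.68, 10.6 and 5.75 TPM and Tcf7l2 at 28.3, 31.4 and 21.8 TPM. Nfib (118, 78.0 and 90.7 TPM; log2 fold change -0.25) and Trp63 (181, 196 and 176 TPM; -0.17) lay below the median shift of all genes, and after median-ratio scaling they were at -0.72 (adjusted p = 0.0507) and -0.64 (adjusted p = 0.0603).

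Set directly against 24 h, the 48 h libraries gave no factor past the threshold, where 0.0434% of all genes passed and the median gene was 0.47 higher. Unadjusted p was under 0.05 for 4 of the 10, against 21.3% of all genes. Nfatc1 was higher in all 3 libraries of 48 h than in any of 24 h (log2 fold change 0.97, SE 0.31; adjusted p = 0.146), as was Sox9 (0.61, SE 0.27; adjusted p = 0.211). Wholly higher groups were found for 25.3% of all genes. The Tbx1 and Lhx2 groups overlapped (1.47, adjusted p = 0.205, and 0.72, adjusted p = 0.212). Without 24 h library 3 the Tbx1 value was 2.24 (adjusted p = 0.0476). After median-ratio scaling the 4 values were 0.51 for Nfatc1, 0.14 for Sox9, 1.005 for Tbx1 and 0.26 for Lhx2.

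Genes around the 10 factors passed at shares not far above those of all genes in the fasted HFSCs. Of the 89 genes of the 5 lists tested, 5 passed at 24 h (5.62%, against 3.07% of all genes) and 18 at 48 h (20.2%, against 15.3%). At 24 h, Hopx, a homeodomain-only protein of the bulge, was lower (log2 fold change -1.12, adjusted p = 0.0450), the epidermal factor Klf5 was higher (1.61, adjusted p = 0.0250), and Ptn, a secreted growth factor, was lower (-2.69, adjusted p = 0.000443). Each was the 1 gene to pass in its list, of 16 hair follicle factors, 21 epidermal factors and 20 bulge genes. Of 19 p63 targets, Dst, a hemidesmosome component, was higher (1.23, adjusted p = 0.0252) and Krt5, a basal keratin gene, was lower (-0.98, adjusted p = 0.0309). None of the 17 paralogs and partners passed at 24 h; 1 did after median-ratio scaling.

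At 48 h, 2 of 17 paralogs and partners were higher, where 13.3% of all genes were, and after median-ratio scaling 2 were higher and 1 lower. Cbfb, the partner subunit of the RUNX proteins, went from 26.6 ± 9.01 to 92.8 ± 8.13 TPM (SD, n = 3 each; log2 fold change 1.82, adjusted p = 0.00138). Ldb1, the adaptor that binds LIM homeodomain proteins such as Lhx2, went from 18.3 ± 7.24 to 54.2 ± 11.3 TPM (1.58, adjusted p = 0.00746). Both passed after median-ratio scaling, at 1.35 (adjusted p = 0.00412) and 1.12 (adjusted p = 0.0342). Of 21 epidermal factors 4 were higher and none lower, among them Klf5 (2.13, adjusted p = 0.00141), Ovol2 (1.72, adjusted p = 0.0134) and Klf4 (0.83, adjusted p = 0.0354). Klf4 did not pass after median-ratio scaling (0.36, adjusted p = 0.315).

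Of 16 other hair follicle factors at 48 h, Vdr, the vitamin D receptor gene, was higher (1.74, adjusted p = 0.00389) and Hopx was lower (-1.36, adjusted p = 0.00554). Of 19 p63 targets 5 were higher and 1 lower, with a median of 0.45 beside 0.42 for all genes; after median-ratio scaling 2 were higher and 1 lower. Of 20 bulge genes 3 were higher and 2 lower, and after median-ratio scaling 1 was higher and 6 lower. Ptn was lowest (-3.70, adjusted p = 5.82e-06), followed by Npnt, a matrix protein gene (-1.79, adjusted p = 0.0151), while the prolactin receptor gene Prlr was higher (1.497, adjusted p = 0.00457). No gene of the 5 lists passed between 48 h and 24 h. Beside these changes, the 7 hair germ and matrix markers summed to 39.3 to 53.8 TPM in ad libitum HFSCs and 86.0 to 112 TPM after 48 h, with Shh at 0 in every library of both groups. Cdh3, Msx1 and Hoxc13 were wholly higher, and Lef1, Krt71 and Krt35 overlapped. The sum of the 4 Schwann cell markers was also wholly higher (8.09 to 12.1 against 0.781 to 5.26 TPM), where Mbp alone did not overlap. The bulge (23323 to 33482 against 38772 to 42421 TPM), immune and melanocyte sums were wholly lower. Within the bulge list, Lgr6 and Krt15, the latter making up most of the sum, were wholly lower. Cd34, Lgr5, Postn and Fgf18 overlapped. The immune difference came mainly from Trbc2 (33.8 to 63.3 against 70.2 to 117 TPM). At 24 h the bulge, basal keratinocyte and immune sums were wholly lower and the Schwann cell sum wholly higher. Krt15 and Lgr6 were again the only genes of the bulge list wholly lower. Of the basal keratinocyte markers only Krt5 was (1753 to 2361 against 3384 to 5389 TPM). Krt14, Itga6, Itgb4 and Col17a1 overlapped. The immune difference again came mainly from Trbc2 and the Schwann cell difference mainly from Mbp. The part of these lists was not tested.

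After 6 months of alternate-day fasting none of the 10 factors passed against 6 months of ad libitum feeding, and 0.00822% of 12162 genes did. The median shift of all genes was 0.09. Unadjusted p was under 0.05 for 4 factors, against 14.1% of all genes. Lhx2 measured 275 and 149 TPM in ADF libraries 1 and 2 and 88.9 and 127 TPM in ad libitum libraries 1 and 2 (log2 fold change 0.92, SE 0.34; adjusted p = 0.317). The Lhx2 libraries of ADF were both higher, but they differed from each other by more than the gap between the groups. Tbx1 measured 679 and 423 TPM against 316 and 323 TPM (0.74, SE 0.26; adjusted p = 0.314).

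The other pair had tighter replicates. Nfatc1 measured 175 and 158 TPM under ADF and 102 and 103 TPM under ad libitum feeding (0.69, SE 0.20, 95% interval 0.22 to 1.17; adjusted p = 0.268). Runx1 measured 49.6 and 42.1 TPM against 28.2 and 24.2 TPM (0.78, SE 0.26, 95% interval 0.18 to 1.39; adjusted p = 0.288). Tcf7l1 was also higher in both ADF libraries, at 32.7 and 16.0 TPM against 14.5 and 15.6 TPM (adjusted p = 0.513). Thus 5 of the 10 were wholly higher under ADF and 2, Nfib and Trp63, wholly lower, where 29.6% of all genes lay wholly higher and 21.0% wholly lower. Nfib measured 103 and 102 TPM against 121 and 108 TPM, and Trp63 263 and 269.8 TPM against 301 and 285 TPM. Sox9 (330.4 and 265 against 285 and 367 TPM), Tcf7l2 (53.8 and 54.4 against 28.8 and 58.3 TPM) and Foxc1 (11.4 and 4.31 against 7.76 and 13.5 TPM) overlapped. None of the tested genes of the 5 lists passed. Of 13 marker lists, the 7 hair germ and matrix markers summed to 89.5 to 159 TPM under ADF and 48.1 to 80.3 TPM under ad libitum feeding. Cdh3, Msx1 and Krt35 were wholly higher under ADF, and Lef1, Hoxc13, Krt71 and Shh overlapped. The immune sum was also wholly higher (69.5 to 75.9 against 63.4 to 64.5 TPM). This difference came mainly from Trbc2 (62.96 to 63.4 against 47.4 to 55.6 TPM). Cd207 was wholly lower under ADF (0.296 to 2.67 against 3.43 to 6.84 TPM). Ptprc, Cd3g, Cd52, Lyz2 and Fcer1g overlapped, and Cd3e was at 0 in both groups. The sum of the 6 genes in the bulge list was wholly lower (35387 to 35463 against 43029 to 47248 TPM) and came mainly from Krt15. By gene, Krt15, Cd34, Postn and Fgf18 were wholly lower. Lgr6 was wholly higher (17.5 to 21.9 against 6.67 to 9.79 TPM), and Lgr5 overlapped. The part of these lists was not tested.

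In the 2nd telogen 1 of the 10 factors passed against ad libitum HFSCs, where 6.10% of 11618 genes passed (5.01% higher and 1.09% lower) and the median shift of all genes was 0.033. This comparison used the 2 ad libitum libraries, 2 and 3, that are in the same table. Tbx1 measured 363 and 352 TPM in the telogen libraries and 132 and 82.5 TPM in the ad libitum libraries. Both telogen values exceeded all ad libitum values of this table, and the log2 fold change was 1.77 (SE 0.32; adjusted p = 0.000421). The call held after median-ratio scaling (1.78, adjusted p = 0.00479) and without mitochondrial transcripts (1.32, adjusted p = 0.0112). It was lost without either telogen library (adjusted p = 0.160 and 0.141), without ad libitum library 3 (0.0823) and with no filter on low values (0.192). The telogen libraries are labelled as controls and not as ad libitum, and they had a mitochondrial share of 3.42% to 3.497% against 25.4% to 32.7%, so the stage of the cells and other differences between these sets of libraries cannot be told apart.

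Lhx2, Tcf7l1 and Foxc1 were also wholly higher in telogen without passing, and Trp63 was wholly lower; of all genes 24.4% lay wholly higher and 19.8% wholly lower. Lhx2 measured 181 and 133 TPM against 109 and 55.8 TPM (0.98, SE 0.36; adjusted p = 0.117). Tcf7l1 measured 20.2 and 13.6 TPM (0.98, adjusted p = 0.397) and Foxc1 14.2 and 9.46 TPM (1.09, adjusted p = 0.380). Trp63 measured 195 and 76.5 TPM against 268 and 220.1 TPM (-0.99, SE 0.36; adjusted p = 0.119), and without mitochondrial transcripts it passed (-1.43, adjusted p = 0.0234), a scaling under which the median of all genes was -0.37. Sox9 (267 and 144 TPM), Nfatc1 (131 and 49.1 TPM), Tcf7l2 (39.6 and 21.6 TPM), Nfib (124 and 56.2 TPM) and Runx1 (28.3 and 12.8 TPM) overlapped the ad libitum libraries. For all 10 factors the same telogen library was the higher one.

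**Figure D3:**
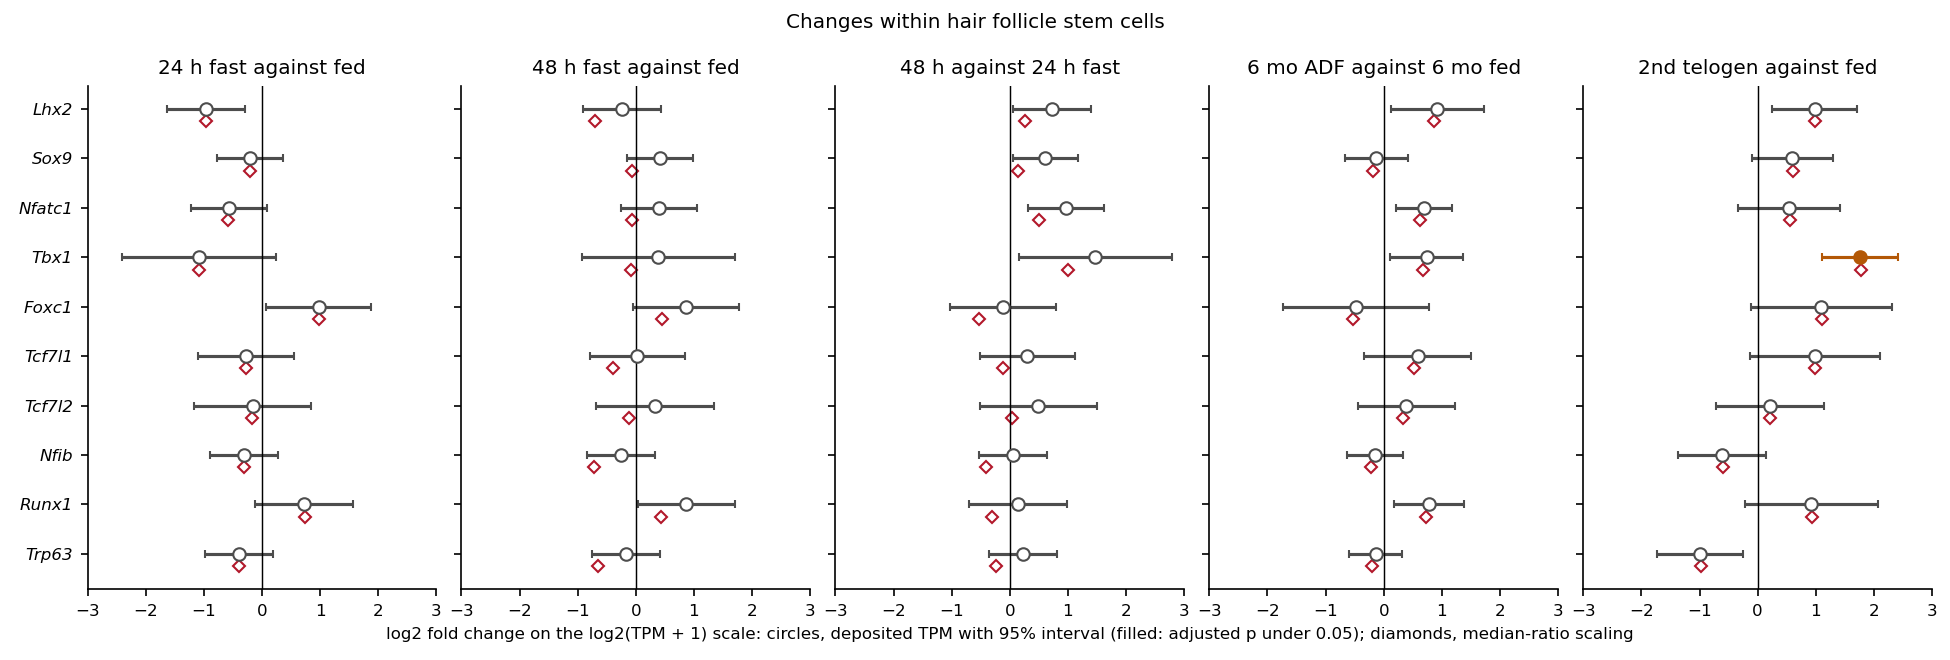
Log2 fold changes of the 10 factors in the 5 comparisons within HFSCs, on the log2(TPM + 1) scale; circles with bars are deposited TPM with 95% intervals, filled where adjusted p was under 0.05, and diamonds show median-ratio scaling. The single filled circle is Tbx1 in the 2nd telogen at 1.77, and the diamonds lie to the left of the circles in both 48 h panels, where the median of all genes was 0.42 and 0.47.

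Of the 92 genes of the 5 lists tested for telogen, 12 passed (13%, against 6.10% of all genes). Of all genes 5.01% were higher and 1.09% lower. In the telogen libraries 4 of 21 epidermal factors were higher and none lower: Pou3f1 (4.07, adjusted p = 3.48e-06), Ovol1 (3.21, adjusted p = 0.000210), Hes1 (2.33, adjusted p = 3.73e-05) and Klf5 (1.86, adjusted p = 0.0108). Of 16 other hair follicle factors the forkhead gene Foxp1, which restrains HFSC activation in mice, was higher (1.66, adjusted p = 0.00761). Of 21 bulge genes 3 were higher and none lower. Fgf18, a secreted signal of quiescent follicles, went from 3.85 ± 1.46 to 58.4 ± 17.8 TPM (SD, n = 2 each; log2 fold change 3.62, adjusted p = 1.40e-05), with Bmp2 (2.32, adjusted p = 0.0148) and Gas1 (2.20, adjusted p = 4.26e-05). Of 18 p63 targets Sfn (3.13, adjusted p = 1.01e-08), Krt14 (1.32, adjusted p = 0.00328) and Fermt1 (1.25, adjusted p = 0.0302) were higher, and of 19 paralogs and partners Ldb1 was higher (1.59, adjusted p = 0.0326). Krt14 did not pass after median-ratio scaling (adjusted p = 0.2302). Of 13 marker lists, 7 had summed levels wholly higher in telogen than in the ad libitum libraries of the same table and 2, immune and sebocyte, wholly lower. The immune difference came mainly from Trbc2 (41.4 to 47.3 TPM in telogen against at least 70.2 TPM). Of the other immune markers, Lyz2 (4.74 to 5.14 against at most 0.0624 TPM) and Fcer1g (2.63 to 3.08 against 0 TPM) were wholly higher in telogen. The 3 erythroid markers summed to 36.9 to 83.5 TPM in telogen and 3.14 to 16.4 TPM in the ad libitum libraries, the 7 hair germ and matrix markers to 66.3 to 104.7 and 46.2 to 53.8 TPM, and the 6 fibroblast markers to 37.8 to 42.6 and 17.9 to 22.7 TPM. Of the hair germ and matrix markers, Msx1 (30.3 to 40.8 TPM) and Krt71 were higher in telogen than in all 3 ad libitum HFSC libraries (Msx1 8.25 to 8.78 TPM). Lef1 was lower than in all 3 (4.07 to 4.18 against 7.14 to 10.2 TPM), and Shh was at 0. The part of these marker lists in the levels of the 10 factors was not tested.

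Ratios to Trp63 within a library describe the balance of bulge factors and the pan-epidermal factor without reference to the library total. In EpiSCs all 9 ratios lay below those of ad libitum HFSCs, against 33.2% of all genes. After 24 h of fasting the ratios of Runx1 (0.0832 to 0.102 against 0.0280 to 0.0549) and Foxc1 (0.0387 to 0.0855 against 0.0187 to 0.0234) lay wholly higher. These were 2 of the 9, near the 19.6% of all genes that lay wholly higher. After 48 h 4 of the 9 did so, Nfatc1, Tcf7l2, Foxc1 and Runx1, against 41.8% of all genes, which is near the members' share. Runx1 to Trp63 was 0.0765 to 0.0957 at 48 h, so the 6 fasted libraries were all above the 3 ad libitum ones. The same held for Foxc1 to Trp63, which was 0.0279 to 0.0654 at 48 h. Both fasted groups were set against the same 3 ad libitum libraries, and the share of all genes with this pattern was not counted.

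In the 6-month experiment the ratio to Trp63 was wholly higher under ADF for Lhx2, Nfatc1, Tcf7l1, Tbx1 and Runx1, 5 of 9, against 36.6% of all genes. Nfatc1 to Trp63 was 0.586 to 0.663 under ADF and 0.338 to 0.363 under ad libitum feeding, and Runx1 to Trp63 was 0.156 to 0.188 and 0.0852 to 0.0936. Tbx1 to Trp63 was 1.57 to 2.58 under ADF and 1.05 to 1.13 under ad libitum feeding. In telogen all 9 ratios were wholly higher than in the ad libitum libraries of that table, and so were those of 65.4% of all genes. Tbx1 to Trp63 was 1.87 and 4.60 in telogen and 0.492 and 0.375 in the ad libitum libraries of the same table. These ratios carry no test.

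**Figure D4:**
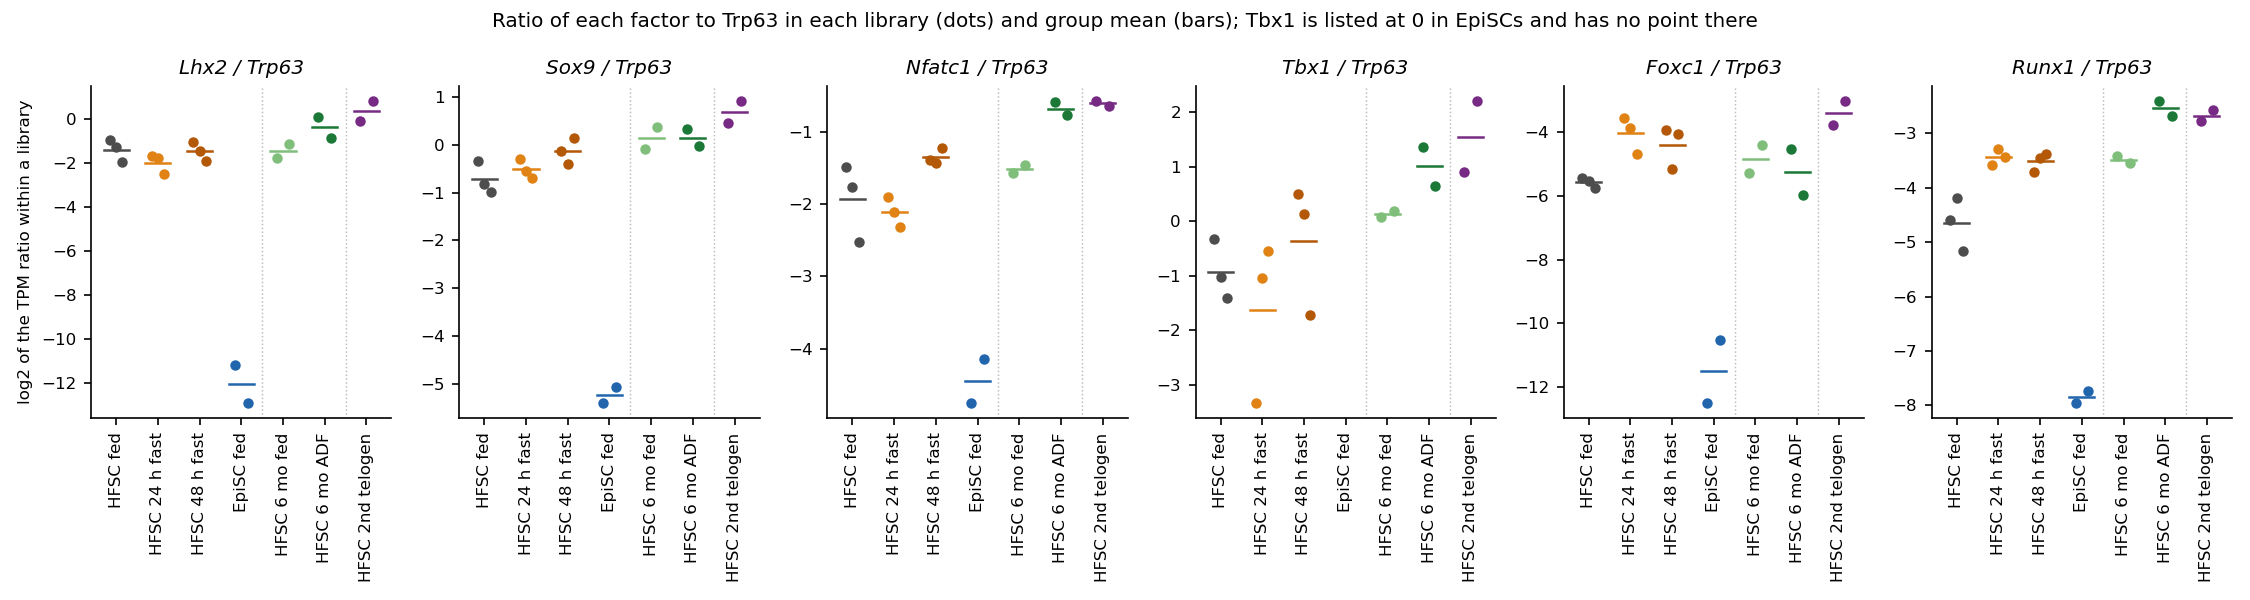
Log2 of the within-library TPM ratio to Trp63 for 6 factors, by group; dots are libraries, bars are group means, and each panel has its own vertical scale. EpiSCs lie lowest for Lhx2, Sox9, Nfatc1, Foxc1 and Runx1, and the Runx1 and Foxc1 ratios are higher in all 6 fasted HFSC libraries than in the 3 ad libitum ones. The share of all genes with this fasting pattern was not counted.

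Levels of the 10 factors were also compared with each other and with other genes across libraries, as a description. Over the 11 libraries of the short experiment the closest pair was Lhx2 and Tcf7l1 (Pearson r 0.990 of log2 values), and the 45 pairs had a median r of 0.830; both values rest largely on the 2 EpiSC libraries. Over the 9 HFSC libraries alone the median was 0.442, with Sox9 and Nfatc1 closest (r 0.908) and Tbx1 and Foxc1 most opposed (r -0.389). Among all genes tested, the 2 most like Lhx2 over 11 libraries were Myoc (0.995) and Tekt2 (0.993), those most like Sox9 were Id2 (0.990) and Mrgprf (0.989), and those most like Tbx1 were Enox1 (0.974) and Naaladl2 (0.973). Nfatc1 was closest to Boc (0.973) and Fzd7 (0.956), Foxc1 to Pdlim7 (0.972) and Atoh8 (0.971), and Nfib to Adcy1 (0.987) and Trpm3 (0.981). Tcf7l1 was closest after Lhx2 to Duoxa1 (0.988), Tcf7l2 to Ctcfl (0.943) and Nrbp2 (0.921), Runx1 to Tigd2 (0.987) and Mtus1 (0.981), and Trp63 to Stat5a (0.965) and Tyk2 (0.951).

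Over the 9 HFSC libraries other genes took these places, except that Mtus1 was again among the 2 most like Runx1 (0.972), after Itpripl1 (0.974). Lhx2 was closest to Pqlc3 (0.958) and Mgst3 (0.939), Sox9 to Hp1bp3 (0.990) and Mfap3 (0.979), Nfatc1 to Cndp2 (0.986) and Jpt2 (0.981), and Tbx1 to Rnf187 (0.984) and Tmem165 (0.973). Trp63 was closest to Mertk (0.968) and Col18a1 (0.945), and Foxc1 to Rc3h1 (0.958) and Impa2 (0.958). Tcf7l1 was closest to Gsr (0.935) and Dact3 (0.926), Tcf7l2 to Mical2 (0.967) and Dpy19l3 (0.962), and Nfib to Sh3glb2 (0.951) and Tusc3 (0.951). The libraries in these correlations share the differences in mitochondrial share described above.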

How the data were processed

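Per the labels' protocols, RNA of the sorted cells was isolated on microscale columns, its mRNA amplified at full length, and libraries built by tagmentation. The deposited values are TPM, made by the authors, and each library sums to 1e+06; Salmon 1.4.0, DESeq2 1.36.0, fastp 0.23.1, Trimmomatic 0.39 and the mm10 build are named in the submitters' processing notes without roles. TPM holds no read counts, so depth is unknown. Groups follow the sample titles, also for the ADF libraries, whose treatment label says ad libitum. Column numbers of the telogen and EpiSC libraries (2 and 3) differ from their titles (1 and 2); telogen columns were mapped to their group only. Ad libitum columns in the telogen table matched HFSC libraries 2 and 3 in all 35674 genes to within 1e-06 TPM, so these entered once.

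Tests were made on log2(TPM + 1) by limma 3.58.1 (R 4.3.3), with a mean-variance trend, two-sided, over genes averaging at least 1 TPM in the fit, with Benjamini-Hochberg adjustment over all of them and a threshold of 0.05. Fold changes on this scale understate changes of low genes. The 3 fasting comparisons came from 1 fit of 9 HFSC libraries, and no test crossed tables. Whether replicates were separate mice is not stated, so p-values cover only sample-to-sample spread, possibly technical. The comparisons of 24 h and 48 h with ad libitum share their controls, as do those with EpiSCs and telogen. The fit was tested on simulated data. The 10 factors and the 5 gene lists were chosen with earlier results of these data known. All 10 factors are reported, with at most the 4 genes of largest change that passed per list and the 2 most correlated genes per factor, and Runx1, Foxc1 and Tbx1 ratios were singled out after their values were seen. A gene of these lists that the rule would name is not reported here. Alternatives were a pseudocount of 0.1, no filter, median-ratio scaling, removal of mitochondrial genes, a replicate block and leaving out each library; a block by column number was added after seeing the data.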

Additional observations from a re-analysis of the deposited data

How the results depend on the processing

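Across the alternatives, 642 values of the 10 factors kept their direction and side of the threshold, 39 changed sign, 19 lost the threshold and 10 gained it; the cause was not tested except where fewer libraries were used. The number passing between EpiSCs and HFSCs ran from 5 to 9 when 1 library was left out, 0 to 1 for 48 h against ad libitum, 0 to 1 for 48 h against 24 h and 0 to 1 for telogen. For telogen it was 2 without mitochondrial genes and 0 with no filter on low values, where more genes shared the adjustment.

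No value that changed sign had passed the threshold. With median-ratio scaling, 48 h against ad libitum gave -0.060 for Sox9, -0.067 for Nfatc1, -0.081 for Tbx1, -0.12 for Tcf7l2 and -0.39 for Tcf7l1, and 48 h against 24 h gave -0.11 for Tcf7l1, -0.24 for Trp63, -0.30 for Runx1 and -0.41 for Nfib. Without mitochondrial genes, 48 h against ad libitum gave -0.028 for Tcf7l2 and -0.31 for Tcf7l1, 48 h against 24 h gave -0.087 for Trp63, -0.16 for Runx1 and -0.26 for Nfib, and telogen gave -0.22 for Tcf7l2.

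Leaving out 1 library at a time, 24 h against ad libitum ran from -0.35 to 0.10 for Sox9 and -0.84 to 0.27 for Tcf7l2. For 48 h against ad libitum the ranges were -0.47 to 0.012 for Lhx2, -0.15 to 0.25 for Tcf7l1, -0.025 to 1.10 for Tbx1 and -0.40 to 0.013 for Trp63. For 48 h against 24 h they were -0.30 to 0.19 for Foxc1, -0.17 to 0.25 for Nfib, -0.058 to 0.37 for Runx1 and -0.056 to 0.46 for Trp63. For ADF they were -0.31 to 0.053 for Sox9, -0.11 to 0.89 for Tcf7l2 and -1.08 to 0.14 for Foxc1, and for telogen -0.16 to 1.24 for Nfatc1 and -0.21 to 0.63 for Tcf7l2. Where 1 library remained in a group, it was assumed to vary like the others.

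With the title numbers as a replicate block, Tcf7l2 passed between EpiSCs and HFSCs (-1.06, adjusted p = 0.0269). Same-numbered libraries showed correlations of their deviations from -0.132 to 0.05, and different-numbered ones from -0.125 to 0.191. With 2 or 3 libraries in a group, these values cannot tell whether libraries were paired. Over all genes the block gave 284 calls against 1 for ADF, 19 against 5 for 48 h against 24 h, 282 against 354 for 24 h, 1417 against 1765 for 48 h and 4973 against 4782 for EpiSCs. With the column numbers as replicate block, chosen after seeing the data, EpiSCs gave 9 factors, Tcf7l2 passing (-1.28, adjusted p = 0.0267) and Trp63 not (0.50, adjusted p = 0.0503), and telogen gave 3, with Lhx2 (0.98, adjusted p = 0.0294) and Trp63 (-0.99, adjusted p = 0.0311) beside Tbx1, among 1287 calls over all genes against 709; same-numbered correlations ran from -0.02 to 0.105 over pairs of libraries. Depth is unknown, so the low EpiSC values have no detection limit.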
